A study of Mus musculus with 4 samples.

Results

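The genes described here are 10 feedback inhibitors and outputs of the RAS-ERK pathway, the adaptors *Spred1*, *Spred2*, *Spry1*, *Spry2* and *Spry4*, the phosphatases *Dusp4* and *Dusp6*, and the transcription factors *Etv1*, *Etv4* and *Etv5*. They were picked by symbol, and all 10 were found among the 32285 genes counted. The counts come from 4 fresh frozen brain sections of *Nf1*+/- mice, 10 µm thick, on Visium slides, which capture polyadenylated RNA in an array of spots, and the sections are named 1 to 4 here. Every section carries the *Nf1*+/- genotype, so no comparison with wild-type tissue was possible, and the labels name no treatment, age, *Nf1* allele or Cre driver. Neither do they say whether the sections came from separate animals, so the spread between sections may be technical. A spot is a small region that can hold several cells of different types, and 1537, 2358, 2294 and 1431 spots with at least 500 unique molecular identifiers (UMIs, each 1 captured RNA molecule) were used, with a median of 14922, 15296.5, 8862.5 and 12232 UMIs.

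ERK is the last kinase of the cascade that RAS drives, and active ERK induces the transcription of its own inhibitors. Sprouty and Spred proteins act upstream on RAS and RAF signalling, with SPRED1 recruiting neurofibromin, the RAS inhibitor that *Nf1* encodes, to the membrane, while DUSP4 and DUSP6 are phosphatases that remove the activating phosphates from ERK. ETV1, ETV4 and ETV5 are the PEA3 group of ETS transcription factors, outputs of FGF and ERK signalling, and OPCs (oligodendrocyte precursor cells) receive such signals through PDGFRα and FGF receptors.

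Start site sequences are shown for 4 of the genes that the results turn on, *Etv1* for white matter, *Spry2* for striatal spots, and *Dusp6* and *Etv5* as the pair with the highest co-occurrence among the well counted genes. They are the 300 bases from 250 before to 50 after an annotated transcript start, 5′ to 3′ on the strand of the gene, from RefSeq on GRCm38.p6 (the mm10 build of the deposited counts). The windows are chr12:38779832-38780131 (plus strand) for *Etv1*, chr14:105896770-105897069 (minus strand) for *Spry2*, chr10:99262981-99263280 (plus strand) for *Dusp6* and chr16:22439521-22439820 (minus strand) for *Etv5*. The capital letter that stands alone is the first transcribed base, and a run of capitals is a match to CCGGAA, a core that ETS factors can bind, on either strand.
Etv1: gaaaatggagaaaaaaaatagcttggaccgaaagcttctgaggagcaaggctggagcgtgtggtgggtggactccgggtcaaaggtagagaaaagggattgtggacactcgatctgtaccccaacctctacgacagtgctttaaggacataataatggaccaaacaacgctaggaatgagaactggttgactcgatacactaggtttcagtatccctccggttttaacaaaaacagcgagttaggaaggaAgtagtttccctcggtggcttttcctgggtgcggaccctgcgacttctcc
Spry2: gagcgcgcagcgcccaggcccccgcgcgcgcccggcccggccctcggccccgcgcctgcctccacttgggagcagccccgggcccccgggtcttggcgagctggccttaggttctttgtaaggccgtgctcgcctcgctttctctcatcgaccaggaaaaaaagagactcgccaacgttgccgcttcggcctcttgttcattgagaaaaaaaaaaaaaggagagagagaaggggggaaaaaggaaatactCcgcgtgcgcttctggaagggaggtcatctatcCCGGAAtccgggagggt
Dusp6: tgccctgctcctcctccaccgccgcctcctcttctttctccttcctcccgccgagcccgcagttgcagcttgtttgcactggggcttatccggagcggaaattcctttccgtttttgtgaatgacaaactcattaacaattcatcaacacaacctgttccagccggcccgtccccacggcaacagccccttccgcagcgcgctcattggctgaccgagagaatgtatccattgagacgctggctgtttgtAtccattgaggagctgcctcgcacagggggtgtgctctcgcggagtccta
Etv5: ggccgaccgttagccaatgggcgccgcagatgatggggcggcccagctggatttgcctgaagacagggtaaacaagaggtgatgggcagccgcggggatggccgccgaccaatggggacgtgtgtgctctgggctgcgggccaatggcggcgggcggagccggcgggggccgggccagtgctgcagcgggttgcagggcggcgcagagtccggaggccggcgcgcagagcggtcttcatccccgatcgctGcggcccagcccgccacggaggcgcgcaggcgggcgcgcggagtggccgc
*Etv1* and *Etv5* each have 1 further annotated start, and 7 of the 10 genes were matched to 9 windows in all. CCGGAA was found in 1 of the 9 windows, that of *Spry2*, 33 bases after the start, and in 14.9% of the 32851 windows of all genes. The cyclic AMP response element TGACGTCA, the AP-1 site TGACTCA and the CArG box of the *Fos* promoter, searched on both strands, were in 0 of the 9 windows, and in 1.79%, 5.20% and 0.0639% of all windows. A match describes the letters of a window and not a bound site.

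Among the adaptors, *Spred1* had 107, 127, 127 and 120 CPM in sections 1 to 4, a mean of 120 ± 9.38 (SD, n = 4 sections), where CPM is the UMIs of a gene out of every 1000000 of the section. *Spred2* stood at 39.0, 53.3, 45.8 and 42.7 CPM and *Spry2* at 33.3, 38.5, 39.4 and 43.0 CPM. *Spry1* and *Spry4* were sparse, at 7.03 to 8.77 and 5.32 to 7.32 CPM, from 778 and 610 UMIs in all. The 2 phosphatases differed in how well they could be measured: *Dusp6* had 5203 UMIs and *Dusp4* 126, at 0.831 to 1.62 CPM. *Dusp6* was at 33.2 CPM in section 1 against 52.2, 60.1 and 60.7 in sections 2 to 4. *Etv5* was also lowest in section 1, at 57.4 CPM against 82.3, 84.8 and 71.3, and so was *Etv1*, at 49.1 against 57.9, 64.2 and 59.2. *Spred1*, *Spred2*, *Spry1* and *Spry2* were lowest in section 1 too, so this was not a trait of single genes. *Etv4* was sparse, at 5.92 to 6.86 CPM from 655 UMIs. At least 2000 UMIs were counted for 6 of the genes, *Spred1*, *Spred2*, *Spry2*, *Dusp6*, *Etv1* and *Etv5*, and differences among spots could be followed mainly in these.

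**Figure D1:**
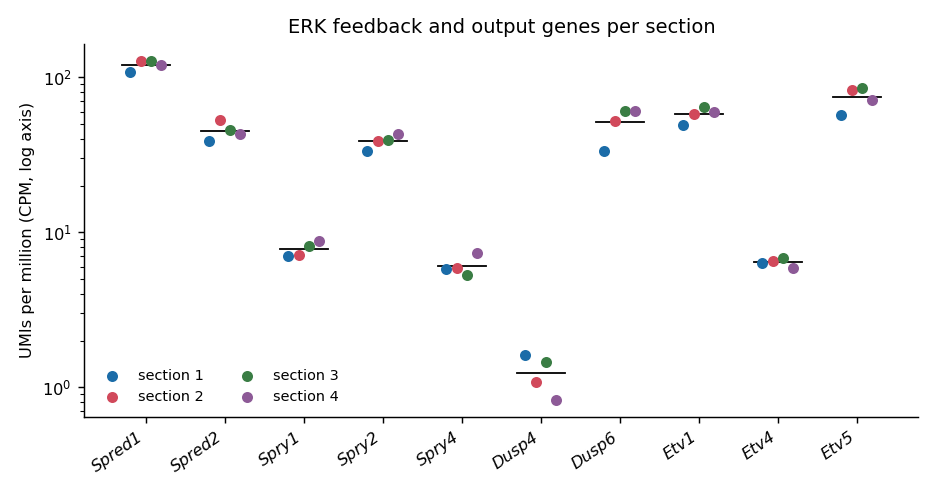
Level of the 10 genes in each section, in CPM on a log axis, with 1 point per section and the mean as a bar. *Spred1*, *Spred2*, *Spry1*, *Spry2*, *Dusp6*, *Etv1* and *Etv5* were lowest in section 1, with *Dusp6*, *Etv1* and *Etv5* there at 33.2, 49.1 and 57.4 CPM.

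To ask where the genes were high, spots were scored for 9 lists of cell type or region markers, and the 10% of spots of each section with the highest score for a list were compared with its other spots. A spot could be high for more than 1 list. Of the spots high for the OPC list, 12.7 to 19.6% were also high for the white matter list. The labels were checked with 2 markers kept out of each score. *Mbp* and *Cnp* were 4.58- to 9.09-fold higher in the white matter-marker-high spots of the 4 sections, *Penk* and *Ppp1r1b* 3.24- to 8.75-fold in the striatal-marker-high spots, and *Olig1* and *Vcan* 1.82- to 2.74-fold in the OPC-marker-high spots. The layer 6 list (*Garnl3* 1.54- to 2.15-fold) and the astrocyte list (*Slc1a3* 1.69- to 1.94-fold) had 1 of their 2 markers over 1.5-fold in every section, while *Foxp2* was at 0.931- to 2.38-fold and *Slc1a2* at 1.12- to 1.44-fold. For the list of upper cortical layers *Calb1* passed 1.5-fold in sections 2 and 4 (1.63- and 2.00-fold) but not in sections 1 and 3 (0.991- and 1.29-fold), and *Mdga1* in none (0.398- to 1.31-fold). For layer 5, hippocampus and subcortical nuclei no marker passed it in any section (at most 1.31-fold, with *Shox2* without a UMI in the high spots), so these 4 groups are called after a gene of each list, the *Cux2*-list, *Fezf2*-list, *Fibcd1*-list and *Slc17a6*-list spots. Sections 1 and 4 had 189 and 76 spots with at least 3 of 10 choroid plexus markers, against 4 and 7 in sections 2 and 3.

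In these comparisons 0 to 5 of the 10 genes passed the test (adjusted p under 0.05, quasi-likelihood test of edgeR, with the adjustment of Benjamini and Hochberg over all genes tested). The count was 1 gene for the OPC list, where 5.88% of all genes tested passed in either direction, and 3 for the white matter list, against 23.7% of all genes. It was 3 for the *Cux2* list (26.4% of all genes), 2 for the *Fezf2* list (5.80%), 1 for the layer 6 list (7.19%), 5 for the striatal list (38.8%) and 4 for the *Slc17a6* list (10.7%). No gene of the 10 passed for the astrocyte list (21.1% of all genes) or the *Fibcd1* list (0.605%), with 2 at an unadjusted p under 0.05 in each and 0 called by DESeq2 in each. The counts for the OPC, white matter, *Cux2*, layer 6 and striatal lists were thus near the background share. No share of all genes was taken for DESeq2, so its counts, here and below, have no background beside them. All 10 genes passed the filter on low counts in every comparison, and their median log2 fold change ran from −0.29 (striatal list) to 0.08 (*Cux2* list), against −0.02 to 0.01 over all genes tested. Fewer cells of a type and less RNA per cell cannot be told apart in these sums over spots.

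**Figure D2:**
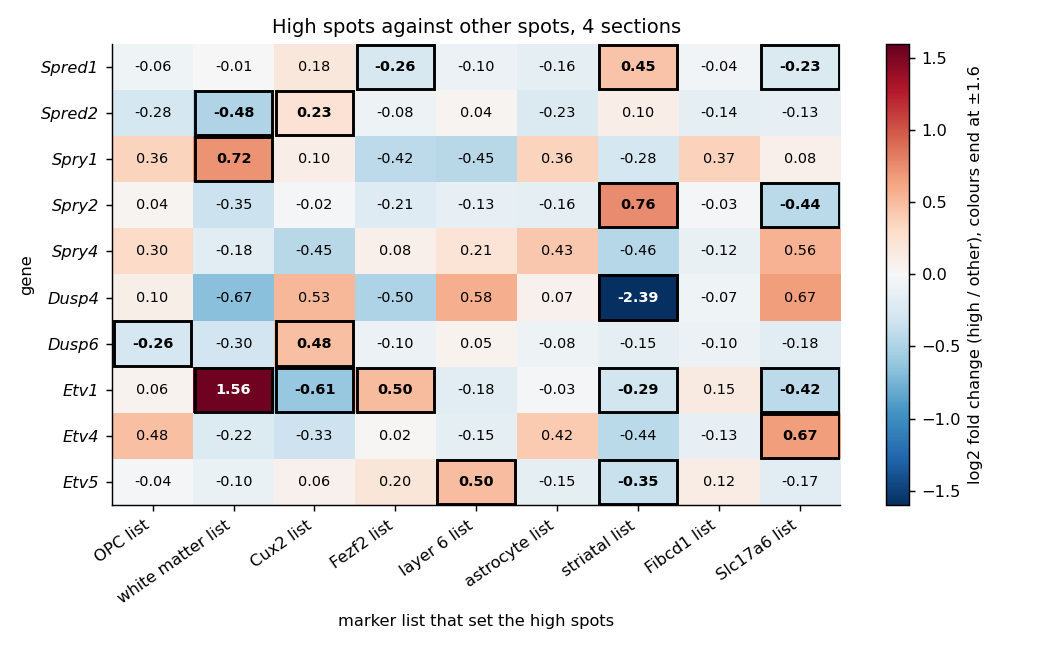
Log2 fold change of each gene (rows) between the spots high for a marker list (columns) and the other spots of the same sections, with framed bold values where the adjusted p was under 0.05. *Etv1* was higher in white matter-list spots (1.56) and lower in *Cux2*-list spots (−0.61), and *Spry2* and *Spred1* were higher in striatal-list spots (0.76 and 0.45).

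In OPC-marker-high spots none of the 10 genes was called higher. *Dusp6* was the only one called, at 27.2, 47.5, 49.3 and 48.8 CPM in the high spots of sections 1 to 4 against 33.8, 52.6, 61.1 and 62.0 in the others. It was lower in each section, but the ranges of the 2 groups overlapped (log2 fold change −0.26, standard error 0.08, adjusted p = 0.0426). This call was lost without each of the 4 sections in turn (adjusted p from 0.0592 to 0.177), in DESeq2 (0.299), with exclusive groups (0.266) and without choroid plexus-marker spots (0.0560). Against other spots of the same expression cluster, matched for total UMIs, the log2 fold change was −0.04 (adjusted p = 0.958). With *Pdgfra* alone as the marker it was −0.07 (adjusted p = 0.748). The other 9 genes ranged from −0.28 (*Spred2*, adjusted p = 0.0547) to 0.48 (*Etv4*, adjusted p = 0.130). *Etv4* stood at 9.85, 8.50, 9.05 and 7.30 CPM in the OPC-marker-high spots and at 5.78 to 6.64 in the others, with no overlap but only 79 UMIs in the high spots, and it missed the threshold. *Spred1* was at 105 to 131 CPM in the high spots and 108 to 127 in the others. *Etv5* was at 44.1 to 84.0 and 58.7 to 84.9 CPM, and the 95% intervals of the log2 fold changes of *Spred1*, *Spry2*, *Etv1* and *Etv5* stayed within −0.18 and 0.25. Single sections went beyond these limits, and their signs were split. The log2 ratios of sections 1 to 4 were −0.42, 0.11, 0.52 and −0.20 for *Spry2*. For *Etv1* they ran from −0.14 to 0.45 and for *Etv5* from −0.41 to 0.22. The intervals thus do not bound the difference in a single section.

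Of 19 other feedback and output genes of the pathway, 17 could be tested between OPC-marker-high and other spots. Of these, 1 was higher and 3 were lower, where 5.88% of all genes passed in either direction, and DESeq2 called 2 of the 17. *Ccnd1*, the cyclin of the G1 phase, was higher (log2 fold change 0.59, 26.1 ± 8.44 against 17.0 ± 4.32 CPM, SD, n = 4 sections). The immediate early genes *Egr1* (−0.42) and *Fos* (−0.34) and the phosphatase *Dusp1* (−0.33) were lower. Among 13 receptor tyrosine kinases *Fgfr1* alone was called, higher at 34.0 ± 2.72 against 25.7 ± 3.71 CPM, and DESeq2 called 0 of the 13. Of the 22 genes of the core cascade 0 were called by edgeR or by DESeq2, and 2 had an unadjusted p under 0.05. The 8 white matter markers were all higher in the OPC-marker-high spots (summed level 1778 to 3211 CPM against 1320 to 2173) and 3 of 4 neuron markers were lower (2399 to 3241 against 2892 to 4187). Their part in these differences was not tested.

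Of the genes with at least 2000 UMIs, *Etv1*, one of the PEA3 factors, differed most, in white matter-marker-high spots. It was counted there at 123, 113, 217 and 169 CPM in sections 1 to 4, from 739 UMIs, against 44.3, 55.2, 56.2 and 54.8 in the other spots. All 4 white matter values lay above all 4 others, and the fitted difference was 2.94-fold (log2 fold change 1.56, standard error 0.12, adjusted p = 7.3e-08). *Etv1* rose along the white matter score from 41.0 ± 3.44 CPM in the 10% of spots with the lowest score to 78.1 ± 8.63 in the ninth decile and 155 ± 47.6 in the highest. Along the OPC score it was 55.9 ± 7.60 CPM in the lowest and 59.6 ± 4.52 in the highest decile. In spots high for markers of newly formed oligodendrocytes, a list that was not tested, *Etv1* was at 102 ± 25.5 CPM. The markers of that list were themselves higher in white matter-marker-high spots (242 to 480 CPM in sum against 69.4 to 100). How many spots these groups share is not given here, so the value is no separate observation.

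*Spry1* was the adaptor that was higher in white matter-marker-high spots, at 7.66, 9.80, 18.1 and 14.7 CPM against 6.99, 7.0, 7.65 and 8.54. The groups overlapped and the high spots held 59 UMIs (log2 fold change 0.72, standard error 0.24, adjusted p = 0.0361). *Spred2* was lower there, at 32.7, 47.3, 23.5 and 20 CPM against 39.4, 53.6, 47.0 and 43.6, again with overlap (−0.48, standard error 0.15, adjusted p = 0.0315). Both calls were lost without section 3 and without section 4, that of *Spry1* also in DESeq2 (adjusted p = 0.0652) and with the top 20% of spots (0.0601), and that of *Spred2* with exclusive groups (0.210) and the top 5% (0.0656), while *Etv1* was between 1.40 and 1.72 without each section in turn. The other 7 genes did not pass, and *Spred1* was at 94.6 to 134 CPM in the white matter-marker-high spots against 107 to 127 in the others.

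White matter-marker-high spots were shallow, with a median of 8562.5, 6082.5, 3935 and 4368 UMIs against 15400, 15953, 9354 and 13128.5 in the others, and CPM values correct for this only on average. In them 7 of 8 microglia markers (summed level 576 to 791 CPM against 407 to 472), 5 of 8 OPC markers and 4 of 5 markers of newly formed oligodendrocytes were also higher, and 4 of 4 neuron markers were lower. Their part in the *Etv1*, *Spry1* and *Spred2* results was not tested. Among the other feedback and output genes 1 of 17 tested was higher and 6 were lower, where 23.7% of all genes passed in either direction. *Errfi1*, an inhibitor of EGF receptors, was higher (0.92), and *Dusp5* (−0.99), *Fos* (−0.73) and *Egr1* (−0.67) were lower. Of the core cascade 4 genes were higher, *Rps6ka1* (1.09), *Nras* (0.67) and *Ptpn11* (0.52) among them, and 5 were lower. The receptors *Erbb3* (18.4 ± 3.87 against 3.41 ± 0.458 CPM) and *Fgfr2* (104 ± 37.3 against 23.0 ± 2.36 CPM) were higher, and *Ntrk3* was lower (−0.44).

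**Figure D3:**
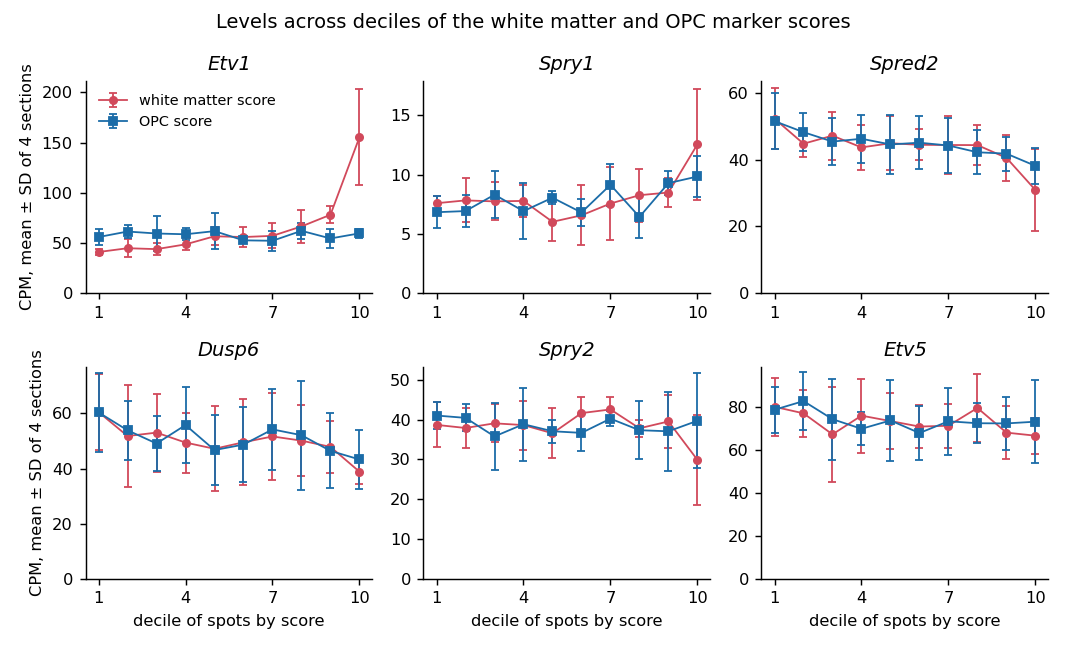
CPM of 6 of the genes (mean ± SD of 4 sections) across deciles of the spots ordered by the white matter score (circles) and by the OPC score (squares). *Etv1* rose to 155 CPM in the highest decile of the white matter score and was at 59.6 CPM in that of the OPC score.

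Among the adaptors, *Spry2* and *Spred1* were highest in the striatal-marker-high spots. *Spry2* was at 53.7, 54.7, 56.9 and 56.8 CPM there and at 30.4, 36.5, 36.8 and 40.7 CPM in the other spots. The groups did not overlap, and the high spots varied little between sections (55.5 ± 1.61 CPM, log2 fold change 0.76, standard error 0.07, adjusted p = 4.6e-07). *Spred1* was at 128, 142, 165 and 148 CPM against 104, 125, 122 and 116, also without overlap (0.45, standard error 0.06, adjusted p = 2.6e-05). *Etv5*, *Etv1* and *Dusp4* were lower in these spots. *Etv5* was at 46.6, 61.6, 68.5 and 42.8 CPM against 58.9, 85.0, 87.2 and 76.1, with overlap (−0.35, standard error 0.07, adjusted p = 0.000976). *Etv1* was at 40.1, 47.8, 51.0 and 37.8 CPM against 50.4, 59.2, 66.2 and 62.9, with overlap (−0.29, standard error 0.07, adjusted p = 0.00476). *Dusp4* had 3 UMIs in the striatal-marker-high spots and 123 in the others, a ratio of CPM of 0.170 (95% exact interval 0.0346 to 0.508, counting error only), with adjusted p = 0.00893 in edgeR and 0.051 in DESeq2. Scaling to total UMIs moved the median of all genes by −0.13 on the log2 scale in this comparison, and left *Spry2* at 0.63 and *Spred1* at 0.32, both called.

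Of the core cascade, 6 genes were higher and 2 lower in striatal-marker-high spots, where 38.8% of all genes passed in either direction. *Hras*, which encodes a RAS protein, was at 452 ± 20.9 against 279 ± 18.4 CPM (log2 fold change 0.83). *Rps6ka3* (0.63) was also higher and the scaffold *Ksr1* (−0.54) lower. Among the other feedback and output genes 1 was higher and 5 were lower, with *Fos* (−1.59), *Ier2* (−1.55), *Ccnd1* (−0.99) and *Ier3* (−0.63) the largest in size. Of the receptors 1 was higher, *Ntrk3* (0.50), and 6 were lower, *Met* (−1.68), *Erbb4* (−0.73) and *Fgfr3* (−0.48) among them. In these spots 7 of 8 astrocyte markers were lower (331 to 443 CPM against 549 to 633 in sum). Of 4 neuron markers 3 were lower and 1 was higher, and the part of these markers was not tested.

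In spots high for the *Cux2* list, *Dusp6*, the phosphatase specific for ERK, was higher, at 35.7, 73, 85.7 and 86.0 CPM against 32.9, 48.2, 55.9 and 56.7. The difference was small in section 1 (log2 ratio 0.13) but not in section 3 (0.62), and the held-out markers were short of 1.5-fold in both. The groups overlapped (log2 fold change 0.48, standard error 0.08, adjusted p = 0.00129). Without section 1 the log2 fold change was 0.57 (adjusted p = 3.39e-08). *Spred2* was at 40, 67.3, 54.1 and 49.2 CPM against 38.9, 50.6, 44.4 and 41.6, higher in each section with overlap (0.23, standard error 0.08, adjusted p = 0.0435), and it lost its call without section 2 (adjusted p = 0.28), 3 or 4. It was not called in DESeq2 (adjusted p = 0.130), with the top 5% of spots (0.145), no filter (0.0621), exclusive groups (0.0829) or no choroid plexus-marker spots (0.0661) either. *Etv1* was lower, at 42.0, 40.3, 49.2 and 30.7 CPM against 50.1, 61.3, 66.7 and 63.8, without overlap (−0.61, standard error 0.10, adjusted p = 0.000886). Here 8 of the 17 other feedback and output genes were higher and 0 lower, where 26.4% of all genes passed in either direction. The largest in size were *Dusp5* (0.55), *Fosl2* (0.52), *Ier2* (0.50) and *Dusp7* (0.44). The receptors *Erbb3* (−0.83), *Fgfr2* (−0.63) and *Fgfr1* (−0.53) were lower. All 4 neuron markers were higher (3834 to 6085 CPM in sum against 2702 to 3784) and all 8 white matter markers lower in the *Cux2*-list spots, and their part was not tested.

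In layer 6-marker-high spots *Etv5* was the only gene of the 10 called. It was at 95.7, 94.6, 107 and 112 CPM there and at 52.6, 81.2, 82.2 and 67.2 CPM in the other spots, so that the groups did not overlap (log2 fold change 0.50, standard error 0.09, adjusted p = 0.00216). *Etv5* was in this group above its level in the *Fezf2*-list spots, the next highest of the 9, in all 4 sections (102 ± 8.41 against 85.6 ± 14.5 CPM). Spots high for neuron markers, a list outside the 9, had *Etv5* at 93.4 ± 9.15 CPM. That was above the layer 6-marker-high spots in section 2 (98.9 against 94.6). *Etv1* and *Etv4*, of the same PEA3 group, were at 43.6 to 60.7 and 5.06 to 7.28 CPM and were not called. *Egr1* (0.42) and *Ier2* (0.62) were higher and *Phlda1* (−0.44) lower among the other feedback and output genes. DESeq2 called 2 of the 17 tested of that list. The receptors *Erbb4* (−0.47), *Fgfr3* (−0.35) and *Ntrk2* (−0.24) were lower, with 0 of the 13 receptors called by DESeq2, and of the 22 genes of the core cascade 0 were called by edgeR or DESeq2 and 2 had an unadjusted p under 0.05. In these spots 3 of 4 neuron markers were higher and 5 of 8 astrocyte markers lower, whose part was not tested.

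The *Fezf2*-list spots had 10 of 10 choroid plexus markers higher (20.4 to 446 CPM in sum against 15.3 to 122). *Etv1* was higher in them, at 53.0, 87.5, 77.5 and 100 CPM against 48.6, 54.2, 62.8 and 54.3 (log2 fold change 0.50, standard error 0.10, adjusted p = 0.00489). The groups overlapped, and the value was as large without the choroid plexus-marker spots (0.54, adjusted p = 0.000264). *Spred1* was lower, at 90.0, 116, 110 and 101 CPM against 109, 128, 129 and 123 (−0.26, adjusted p = 0.0112), and lost its call without section 1 and without section 4. In the *Slc17a6*-list spots *Etv4* was higher, at 12.2, 8.03, 10.2 and 9.88 CPM against 5.69, 6.37, 6.50 and 5.48, without overlap but from 98 UMIs (0.67, standard error 0.18, adjusted p = 0.0151). That call was lost in DESeq2 (adjusted p = 0.0751), with the top 5 or 20% of spots (0.0820 and 0.237), and without section 1, 3 or 4. *Spry2* (−0.44, adjusted p = 0.00237), *Etv1* (−0.42, adjusted p = 0.000399) and *Spred1* (−0.23, adjusted p = 0.0100) were lower in those spots in all 4 sections, of which *Spred1* was not called without section 2 (adjusted p = 0.131) or in DESeq2 (0.0832), and *Spry2* not with the top 5% of spots (−0.29, adjusted p = 0.185). Among the receptors *Met*, which binds hepatocyte growth factor, was higher there at 11.8 ± 5.36 against 2.57 ± 0.695 CPM, and *Fgfr1* at 37.6 ± 6.97 against 25.2 ± 3.32 CPM. The *Slc17a6*-list spots had 5 of 8 astrocyte and 4 of 10 choroid plexus markers higher and 7 of 7 striatal markers lower, and their part was not tested.

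In astrocyte-marker-high spots none of the 10 genes was called, with *Etv5* at 56.4, 75.9, 73.7 and 63.7 CPM against 57.5, 83.0, 85.8 and 72.0 in the other spots. The FGF receptors themselves were higher there, *Fgfr3* at 113 ± 7.05 against 58.2 ± 6.57 CPM (log2 fold change 0.94), *Fgfr1* at 46.6 ± 5.74 against 24.4 ± 3.59 CPM (0.93) and *Fgfr2* at 39.0 ± 6.97 against 25.7 ± 3.54 CPM (0.61). Of the core cascade 4 genes were lower and 0 higher, where 21.1% of all genes passed in either direction. *Hras* (−0.45), *Map2k1* (−0.42) and *Rps6ka3* (−0.37) were among the 4. In these spots 8 of 9 endothelial (365 to 550 CPM in sum against 280 to 334), 6 of 6 fibroblast (36.6 to 131 against 19.2 to 28.5), 5 of 5 ependyma and 5 of 8 microglia markers were higher, and 7 of 7 striatal and 3 of 4 neuron markers lower, whose part was not tested.

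**Figure D4:**
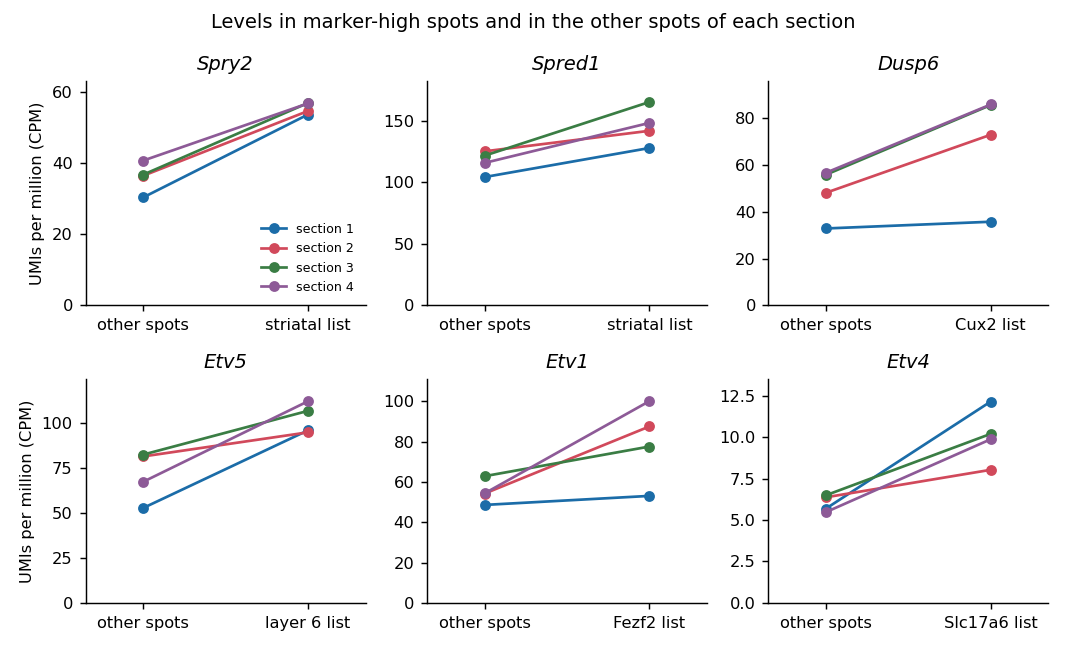
CPM of 6 genes in marker-high spots (right of each panel) and in the other spots (left) of each section, 1 line per section. *Spry2* reached 53.7 to 56.9 CPM in striatal-list spots of every section, and *Dusp6* differed little in section 1 (35.7 against 32.9 CPM).

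Ordered over the 9 groups, *Etv1* was highest in white matter-marker-high spots, then in *Fezf2*-list spots (79.5 ± 19.9 CPM) and then in *Fibcd1*-list spots (63.1 ± 7.05 CPM), with each step of the same sign in all 4 sections. *Spry2* was highest in striatal-marker-high spots, above the OPC-marker-high spots (39.6 ± 11.9 CPM) in all 4 sections, and no other neighbours in its order differed with 1 sign in all 4. *Spred1* was highest in striatal and then *Cux2*-list spots (146 ± 15.5 and 137 ± 22.2 CPM), which did not differ with 1 sign, while the *Cux2*-list spots lay above the *Fibcd1*-list spots (118 ± 16.9 CPM) in all 4. *Dusp6* and *Spred2* were both highest in *Cux2*-list spots (70.1 ± 23.7 and 52.7 ± 11.4 CPM) and both lowest in white matter-marker-high spots (38.8 ± 4.33 and 30.9 ± 12.2 CPM), but the first step down was not of 1 sign in all 4 sections for either. In spots high for neuron markers, a list outside the 9, *Dusp6* was at 69.1 ± 16.5 and *Spred2* at 54.9 ± 8.82 CPM. Groups shared spots, as did the *Fezf2*-list and *Fibcd1*-list spots (12.7 to 16.6%), and these orders carry no test.

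To ask whether the genes varied together beyond the total UMIs of a spot, the product of the UMIs of 2 genes was summed over the spots of a section and divided by the sum that the spot totals alone would give. This co-occurrence ratio is 1 where 2 genes share nothing but depth. Over the 45 pairs its median was 1.08, 1.06, 1.01 and 1.05 in sections 1 to 4, against 0.995 to 1.02 over the pairs of all 13776 to 13780 genes at least as well counted as *Dusp4*. Over the 15 pairs of the 6 genes with at least 2000 UMIs the median was 1.10, 1.07, 1.03 and 1.02, against 1.04, 1.02, 1.02 and 1.02 over the pairs of 7057 genes of that count. Among the 15 pairs 12, 13, 11 and 10 were above 1, against 70.0, 65.7, 60.2 and 60.8% of those pairs of all genes. Residuals were the UMIs of a gene in a spot less those expected, over the square root of the latter. Their median correlation over the 15 pairs was 0.024, 0.025, 0.018 and 0.0049. Over the pairs of all genes it was 0.0066, 0.0045, 0.0028 and 0.0050. By both measures the 15 pairs lay above genes in general in sections 1 to 3, with small values. In section 4 neither median was higher (ratio 1.017 against 1.020).

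*Dusp6* and *Etv5* had the highest ratio of those 15 pairs, 1.12, 1.15, 1.20 and 1.16 in sections 1 to 4 (mean 1.16 ± 0.0312). *Spred2* and *Dusp6* followed at 1.11, 1.20, 1.16 and 1.11, then *Spred2* and *Etv5* at 1.16, 1.13, 1.08 and 1.08 and the 2 Spred genes at 1.11, 1.14, 1.09 and 1.08, all above 1 in every section. So were *Spred1* with *Spry2*, *Dusp6* and *Etv5*, *Spry2* with *Spred2* and *Dusp6*, and *Etv1* with *Etv5*. A ratio above 1 in every section therefore does not set the highest pairs apart. Ratios lay below 1 in all 4 sections for *Etv1* and *Spry2* (0.955, 0.896, 0.862 and 0.944) and for *Etv1* and *Spred1* (0.981, 0.968, 0.900 and 0.909), while *Etv1* and *Spred2* were near 1 (1.11, 1.02, 0.994 and 0.998). The correlation of the residuals across the spots of a section was small even for *Dusp6* and *Etv5*, at 0.0260 to 0.136, and is given as a description over spots that share a library.

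Once the expected product was set within each of 10 clusters of spots per section, most of these ratios were near 1. The clustering left out these genes and the score markers, while the held-out markers could enter it. *Dusp6* and *Etv5* came to 1.00 ± 0.0408 and *Spred2* and *Dusp6* to 1.00 ± 0.0357, with 2 of 4 sections above 1 for each. *Etv1* and *Etv5*, at 1.09 ± 0.0629 over whole sections, kept 1.07 ± 0.0443 within clusters and were above 1 in all 4 sections both ways. *Spred1* and *Spred2* kept 1.04 ± 0.0204 and *Spred1* and *Spry2* 1.02 ± 0.0218, again above 1 in all 4. *Dusp6* and *Etv1* stood below 1 in all 4 (0.951 ± 0.0433). The median over the 15 pairs was 0.983 to 1.02 within clusters, against 1.01 to 1.02 over the pairs of all genes of that count.

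**Figure D5:**
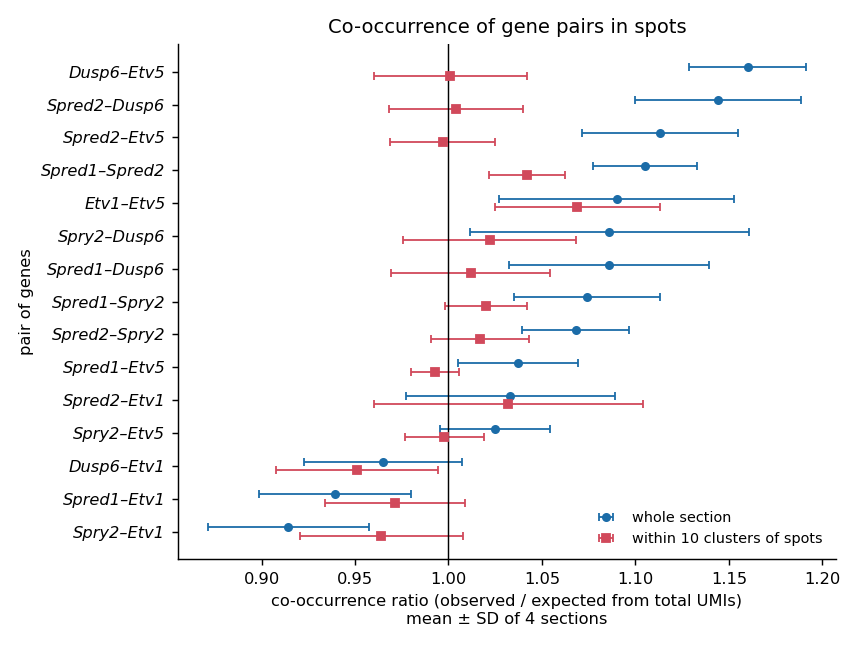
Co-occurrence ratio (mean ± SD of 4 sections) of the 15 pairs among the 6 genes with at least 2000 UMIs, over whole sections (circles) and within clusters of spots (squares). *Dusp6*–*Etv5* moved from 1.16 to 1.00 within clusters, and *Etv1*–*Etv5* from 1.09 to 1.07.

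The spread of a single gene beyond counting noise can be read the same way, as the ratio of its own pairs of UMIs in a spot to those the totals give. *Etv1* was the most uneven of the 6, at 1.48 ± 0.150, followed by *Etv5* (1.32 ± 0.144), *Dusp6* (1.31 ± 0.0716), *Spry2* (1.23 ± 0.0744), *Spred2* (1.18 ± 0.0382) and *Spred1* (1.09 ± 0.0259). Within the clusters *Etv1* stayed at 1.41 ± 0.145, while *Dusp6* came to 1.09 ± 0.0800 and *Etv5* to 1.13 ± 0.0971.

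Over the 40 clusters of the 4 sections, the genes most like each of the 6 among 7056 were found by Pearson's r of log2(CPM + 1), centred within each section. They were *Desi1*, *Ado* and *Sept4* for *Etv1* (r = 0.942, 0.941 and 0.936), and *Sel1l3*, the layer 6 list marker *Rprm*, and *Extl1* for *Etv5* (0.906, 0.900 and 0.888). *Spred2* was most like *Ap1m1*, *Agtpbp1* and *Naa25* (0.920, 0.918 and 0.912), *Spry2* like *Spata2l* and *Tacc1* (0.824 and 0.779), *Dusp6* like *Iqsec2*, *Fam131a* and *Pcnx2* (0.795, 0.786 and 0.786), and *Spred1* like *2810455O05Rik*, *Hlf* and *Cacna1c* (0.745, 0.727 and 0.689). None of the 6 was among the 3 nearest of another, but so high a rank among 7056 genes is rare for any gene. The search thus says little about whether the 6 varied together. Between them r ran from −0.288 (*Spry2* and *Etv1*) to 0.694 (*Spred2* and *Etv5*), with *Dusp6* and *Etv5* at 0.465. *Etv1* was also negative with *Spred1* (−0.200) and *Dusp6* (−0.196). The clusters of a section share 1 library. Each cluster weighed the same in r, though they held from 86103 to 7401816 UMIs. *Spry1*, *Spry4*, *Dusp4* and *Etv4* had too few UMIs to be searched for or to be found, so the search says nothing about them.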

How the data were processed

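The deposited files hold raw UMI counts per gene and spot, which the authors made with Space Ranger 1.3.1 on mm10, with no normalization. Spots with at least 500 UMIs were kept, and no doublet caller was run on spots. A marker score was the summed UMIs of a list less those expected from the spot's total, divided by the square root of the latter. Counts were summed over the top 10% of spots and over the others of each section and tested with edgeR 4.0.16 (quasi-likelihood, TMM, filterByExpr, section as a block, Benjamini-Hochberg), after a test on simulated data. A section gives both sums of a pair (r of 0.265 to 0.663 over genes between the departures of the 2 sums from their means). P-values set the difference between the 2 sums only against its spread across sections, counting error included. Clusters came from k-means (scikit-learn 1.9.0) on 20 components of 1000 variable genes. Log2 ratios per section added 0.5 UMIs to each count. Visium counts 3′ tags, so levels were not scaled by gene length.

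Sections shared 427 to 1989 barcodes, which mark slide positions and not cells. All 10 genes were named in every comparison, and of each list of other pathway genes at most the 4 largest differences with an adjusted p under 0.05 and 1 direction in all 4 sections, leaving out score markers. *Etv1*, *Etv5* and the other genes with at least 2000 UMIs were followed over clusters. The genes and lists were chosen with earlier results of these data known. Alternatives were the top 5 or 20% of spots, scaling to total UMIs, no filter on low counts, DESeq2 1.42.0 and no section block. Further alternatives were exclusive groups, no choroid plexus-marker spots, spots matched for cluster and depth (up to 3 for each high spot), *Pdgfra* alone, and each section left out. For co-occurrence they were thinning to 5000 UMIs (72, 143, 427 and 207 shallower spots of sections 1 to 4 left out), spots with at least 2000 UMIs and, chosen after seeing the data, the 15 well counted pairs. The exact interval of *Dusp4* covers counting error only, and the intervals of log2 fold changes were taken from the edgeR standard errors. Some genes that these rules select are not reported here.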

Additional observations from a re-analysis of the deposited data

Results flagged for a closer look

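Of 29 sets of 4 section values (the level of each gene, and the log2 ratio of each called difference), 3 had a section far from the rest, and chance alone gives about 1 in 20. For *Dusp6* in OPC-marker-high spots the log2 ratio was −0.14 in section 2 against −0.34 to −0.30 in the other sections. For *Dusp6* in *Cux2*-list spots it was 0.13 in section 1 against 0.60 to 0.62. For *Etv1* in striatal-marker-high spots it was −0.73 in section 4 against −0.37 to −0.31.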

How the results depend on the processing

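No direction turned among 21 differences followed through 247 alternative values. Of 50 calls lost in them, 13 were lost with no replicate block, where the genes called fell to 0 for the OPC, *Fezf2*, layer 6 and *Slc17a6* lists and to 1 for the white matter and *Cux2* lists. Each section gives both sums of a pair, so that fit counts the difference between sections as noise. The OPC count (1 gene) was 2 with the top 20% of spots and with no filter, and 0 with DESeq2, exclusive groups, no choroid plexus-marker spots, matched spots and *Pdgfra* alone. The white matter count (3) was 5 with no filter. The layer 6 count (1) was 3 with the top 5% of spots, the astrocyte count (0) was 2 with the top 20% and with no filter, the *Fibcd1* count (0) was 1 with the top 5%, and the *Slc17a6* count (4) was 2 with DESeq2. Leaving out each section gave 0 to 1 for the OPC list, 1 to 4 for white matter, 1 to 2 for *Fezf2* and 0 to 1 for the astrocyte list. The OPC count was 0 without section 1, 2 or 3, and without section 4 the gene called was *Spred2* (adjusted p = 0.0233) and no longer *Dusp6*. The low ends came without section 3 or 4 (white matter) and without section 1 or 4 (*Fezf2*), and the high end of the astrocyte list without section 4. The median co-occurrence ratio over 45 pairs (1.05) was 0.978 with spots thinned to 5000 UMIs and 1.01 within clusters. Over the 15 well counted pairs it was 1.055, and 1.042 with thinning (1.016 to 1.074 in the 4 sections) and 1.005 within clusters. No ratio over the pairs of all genes was taken after thinning. Pairs with *Dusp4* have few joint counts after thinning. The cause of the changes in these counts and ratios was not tested. Differences of *Spry1*, *Spry4*, *Etv4* and *Dusp4* rest on few UMIs, so small ones were not detectable at this depth.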
